A study of Rattus norvegicus with 8 samples.

Results

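The genes described here encode the subunits of the transcription factor NF-kappa-B and proteins that control it. The list holds 10 rat genes, namely the subunits Nfkb1, Nfkb2, Rel, Rela and Relb, the inhibitors Nfkbia, Nfkbib and Tnfaip3, Bcl3, and the kinase Ikbkb. Bcl3 belongs to the I-kappa-B family and can turn genes on or off. The genes were sought on the array as the non-control spots whose gene name equals the symbol. Of the 10 genes, 8 have spots under their name, and all 8 were quantified in every rat, out of 21332 gene names quantified and 35199 named on the array. No spot carries the name Relb or Tnfaip3, so no expression value can be given for these genes.

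NF-kappa-B is a dimer of Rel-family proteins that waits in the cytoplasm bound to an I-kappa-B inhibitor. When a cytokine, a bacterial product or cell damage activates the I-kappa-B kinase, the inhibitor is phosphorylated and degraded and the dimer enters the nucleus, where it binds kappa-B sites and turns on genes of inflammation and cell survival. Several of its own subunits and inhibitors are textbook targets of the factor, which closes a feedback loop. In the hippocampus, NF-kappa-B is known to be activated in glia and neurons by seizures.

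Gene expression was measured in the dentate gyrus of 8 ovariectomized adult female Sprague-Dawley rats, all of which underwent status epilepticus (SE) after kainic acid, an agonist of glutamate receptors. Of these, 4 rats received oil (COS) and 4 received estradiol benzoate (CES), and the comparison asks how estradiol replacement changed the transcriptome of rats with seizures. According to the sample records, the rats weighed 150 to 200 g, were ovariectomized under ketamine and xylazine before replacement began, and received 4 doses of oil or of 2 µg of estradiol at intervals of 24 h, 2 of the 4 before SE, with 16 mg/kg of kainic acid and SE stopped at 5 h with pentobarbital. The study's methods describe another kainic acid dose, another drug to end SE and all injections before SE, and they give the time of tissue collection in more than 1 way, which the files do not settle. RNA of each rat was labeled with Cy3 (replicates 1 and 3 of each group) or Cy5 (replicates 2 and 4), and each of the 4 arrays, which lie on a single slide, held a pair of rats of the same group. Rats without SE were not analysed here, so every difference below is between CES and COS.

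The probes used for the measurement are 60 bases long, and their positions are those the files give on the rn4 build. The sequences of a probe each for Rel, Rela, Nfkb2, Nfkbia and Nfkbib are shown because they say which stretch of the transcript the reported levels stand for. They read 5′ to 3′ along the transcript.
Rel (A_44_P248193, chr14:104645730-104645789, minus strand): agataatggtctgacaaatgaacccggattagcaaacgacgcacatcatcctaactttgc
Rela (A_44_P557228, chr1:208272349-208272408, plus strand): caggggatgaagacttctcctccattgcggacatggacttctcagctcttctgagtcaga
Nfkb2 (A_42_P658264, chr1:251526647-251526839, plus strand): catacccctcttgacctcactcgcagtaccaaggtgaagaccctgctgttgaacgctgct
Nfkbia (A_44_P261450, chr6:75730438-75730497, minus strand): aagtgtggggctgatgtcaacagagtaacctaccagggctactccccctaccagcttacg
Nfkbib (A_44_P186860, chr1:83866200-83866259, minus strand): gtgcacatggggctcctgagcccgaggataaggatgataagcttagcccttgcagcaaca
The Nfkb2 probe spans 193 bases of the genome. Of the other genes, Nfkb1 was read on the minus strand of chromosome 2 by a probe from 233091120 to 233091179, spotted 10 times, and by another from 233091704 to 233091763. Ikbkb was read on the plus strand of chromosome 16 from 73858022 to 73858081, and Bcl3 on the minus strand of chromosome 1 from 79122832 to 79122891.

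Because several of these genes are textbook targets of NF-kappa-B, the promoters of the list were searched for the kappa-B consensus on both strands, counting overlapping matches. The window ran from 250 bases before to 50 bases after the transcription start in RefSeq, on the GRCr8 build, and 8 of the 10 genes had an entry (Relb and Ikbkb had none). Of these 8 promoters, 6 held a match, against 7.51% of the 33469 promoters of the same length. The match nearest the start is shown for each gene, with the bases of the consensus in capitals.
Nfkb2 (chr1:255108344-255108373, plus strand): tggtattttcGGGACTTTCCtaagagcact
Nfkbia (chr6:78597084-78597113, minus strand): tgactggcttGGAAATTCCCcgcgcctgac
Bcl3 (chr1:88613574-88613603, minus strand): tcggcggcagGGGAAGTCCCgcagcccggc
Rel (chr14:101922000-101922030, minus strand): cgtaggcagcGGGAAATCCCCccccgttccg
Nfkb1 (chr2:226805440-226805469, minus strand): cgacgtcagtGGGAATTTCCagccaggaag
Tnfaip3 (chr1:15544015-15544044, minus strand): aaagtccctcGGAAATCCCCctgtggcgaa
The match began 20 bases before the start in Nfkb2, 31 in Nfkbia, 38 in Bcl3, 82 in Rel and 55 in Tnfaip3. In Nfkb1 it covered bases 4 to 13 after the start. In Rel the capitals are 11 bases because matches on the 2 strands overlap, and a second such stretch began 219 bases before the start. Tnfaip3 held 3 stretches. The Rela and Nfkbib windows held no match. A match describes the letters in the window and was not measured as a binding site.

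Levels are given as log2 of the background-subtracted signal relative to the median of the valid spots of the rat's channel, so a difference of 1 is a doubling of the signal. Spots counted as valid from a foreground of 2 times the local background upward, and no spot was saturated. Of 43379 spots, between 32381 and 38553 were valid in COS rats and between 30690 and 35352 in CES rats. With either dye, both CES rats had fewer valid spots than both COS rats. Over all 21332 gene names the median difference CES minus COS was −0.25, and limma called 6038 lower in CES and 1238 higher. This imbalance moved with the scaling. When each channel was scaled on the spots that all 8 rats share as valid (shared-spot scaling), the median was 0.15 and 1718 gene names were lower and 3348 higher, and after loess and Aquantile normalization 2225 were lower and 3323 higher. The counts also moved with single rats, to 914 lower and 257 higher without COS replicate 3, 2463 and 525 without CES replicate 1, and 3634 and 511 without COS replicate 1, while 3979 were lower without COS replicate 2 and 532 higher without COS replicate 4. For this reason the reported difference of each of the 8 NF-kappa-B genes is followed by its excess over the all-gene median. Shared-spot scaling shifts all differences by the same amount and leaves this excess unchanged. Differences of other genes are given without their excess. Of the marker genes of dentate granule cells, C1ql2, C1ql3 and Calb1 were well above background in all 8 rats and Prox1 was not quantified. Of the 5 tested, 3 were called lower in CES (C1ql2, Dsp and Tdo2), against 28.3% of all gene names. The summed level of the choroid plexus markers, among them Ttr, ran from 13.1 to 616 in COS and from 16.2 to 194 in CES.

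The 8 quantified NF-kappa-B genes were all lower in CES than in COS. Limma called 8 of 8 lower, where it called 28.3% of all gene names lower and 5.8% higher. The values of the 4 COS and the 4 CES rats did not overlap for 7 of the 8, against 19.8% of all gene names lower in this way and 1.61% higher. The median difference of the 8 genes was −1.31. In whole tissue, fewer cells of a type and less RNA per cell cannot be told apart, and this holds for every difference here. With shared-spot scaling, 7 of the 8 were called lower (all but Ikbkb), where 8.05% of all gene names were, and the median of the 8 was −0.91. The groups of the same 7 genes did not overlap under that scaling either, against 11.2% of all gene names. With normexp background correction 2 of the 8 were called lower (Rel and Bcl3), against 2.16% of all gene names. Without COS replicate 3, 4 of the 8 were called lower (Rel, Nfkbia, Nfkbib and Bcl3), against 4.28% of all gene names.

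**Figure D1:**
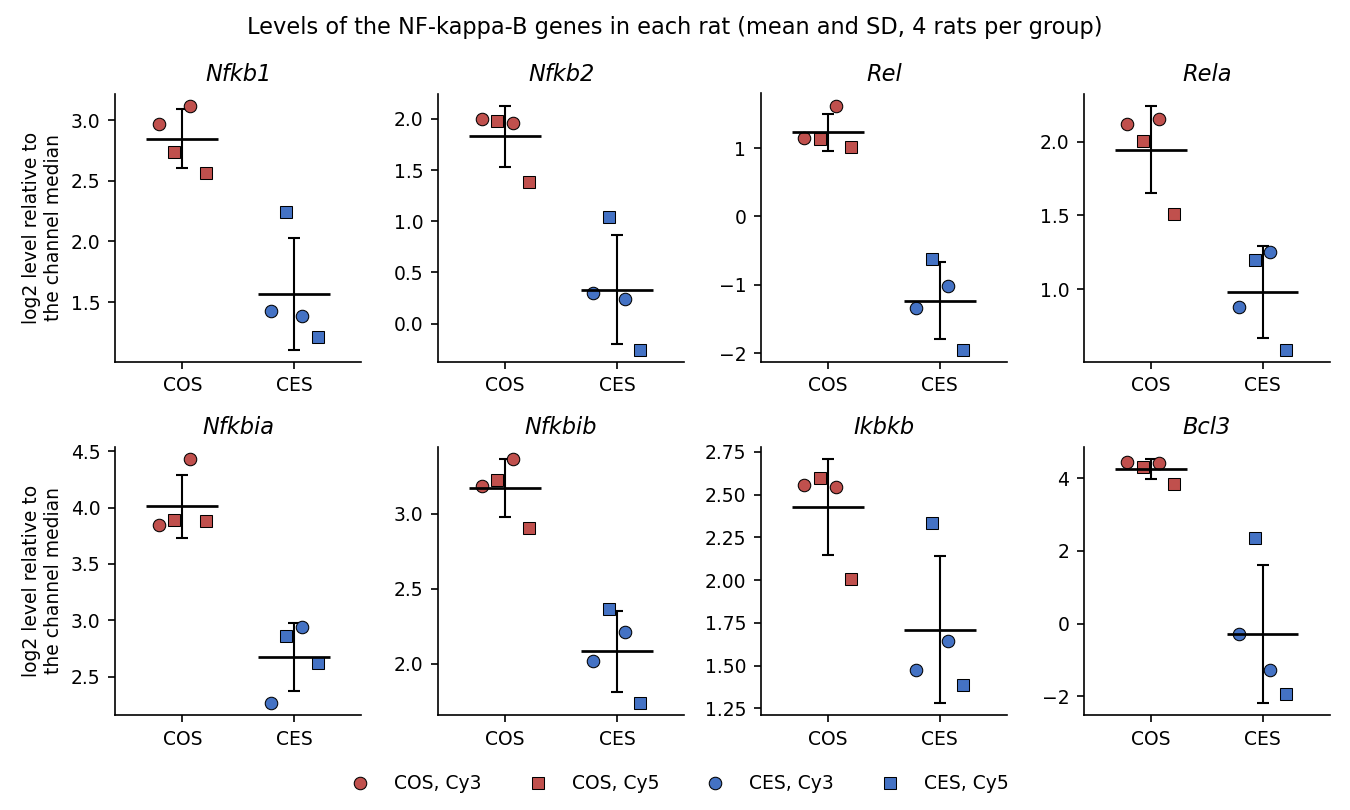
Log2 level relative to the channel median for each of the 8 quantified NF-kappa-B genes, 1 panel a gene with its own vertical axis. Points are single rats (circles Cy3, squares Cy5), the horizontal bars are the group means and the vertical bars the SD of 4 rats. The COS and CES rats are apart in every panel except Ikbkb, where CES replicate 2 at 2.33 lies above COS replicate 4 at 2.00.

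Among the subunits, Rel differed most. Rel encodes c-Rel, a subunit with a transactivation domain best known from lymphoid and myeloid cells. Its level was 1.15, 1.14, 1.62 and 1.01 in COS replicates 1 to 4 and −1.35, −0.62, −1.02 and −1.95 in CES replicates 1 to 4. Every COS rat lay above the channel median and every CES rat below it. The COS mean was 1.23 ± 0.27 (SD, n = 4) and the CES mean −1.24 ± 0.56 (SD, n = 4). The difference was −2.47 (standard error 0.27, limma adjusted p = 0.00294), which is 5.52-fold lower in CES, and −2.21 beyond the all-gene median. The size depended on the processing, since the difference was −1.30 after loess and Aquantile normalization (−1.34 beyond the all-gene median of that setting) and −1.54 with normexp (−1.40 beyond it). The software marked the Rel spot as well above background in all 4 COS rats and in 2 of the CES rats. No more than 0.825% of all gene names had a difference as low as that of Rel.

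Rela encodes p65, the transactivating subunit of the most common NF-kappa-B dimer. Its level was 2.12, 2.00, 2.16 and 1.51 in COS and 0.88, 1.20, 1.25 and 0.59 in CES. The lowest COS rat, replicate 4, still lay above the highest CES rat, replicate 3. The means were 1.95 ± 0.30 (SD, n = 4) and 0.98 ± 0.31 (SD, n = 4), a difference of −0.97 (standard error 0.20, limma adjusted p = 0.00757), or −0.71 beyond the all-gene median. Without COS replicate 3 its adjusted p rose to 0.0652, and over all alternatives it lay between 0.00134 and 0.318. Rela had a second probe, A_44_P184726, which was not well above background in any rat. On that probe the levels ran from −3.19 to −1.71 in COS and from −3.67 to −1.30 in CES and the groups overlapped, so the Rela difference rests on the other probe, where its 95% interval ran from −1.45 to −0.55 (limma p adjusted over all probes = 0.00668).

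Nfkb1 encodes the precursor p105, which acts as an inhibitor until it is processed to the DNA-binding subunit p50. Its level was 2.97, 2.74, 3.12 and 2.57 in COS and 1.42, 2.24, 1.39 and 1.21 in CES. Here CES replicate 2 stood between the other CES rats and the COS rats. The means were 2.85 ± 0.25 (SD, n = 4) and 1.57 ± 0.46 (SD, n = 4), and the difference of −1.28 (standard error 0.25, limma adjusted p = 0.00607) was −1.03 beyond the all-gene median. Without COS replicate 3 its adjusted p rose to 0.0575, and over all alternatives it lay between 7.94e-05 and 0.129.

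Nfkb1 was also the gene with the most technical repeats. The SD of the 10 spots of its first probe within a rat was 0.27 to 0.29 in COS and 0.20 to 0.21 in CES. Its difference on this probe was −1.34 (standard error 0.24, limma p adjusted over all probes = 0.00500) with groups that did not overlap. On the second probe, A_44_P494130, it was −1.02 (adjusted p = 0.0263, standard error 0.30), and CES replicate 2 at 3.34 exceeded COS replicate 4 at 3.16. In CES replicate 3, 3 of the 10 spots were marked as outliers by the scanner software, and leaving out every marked spot kept all 8 genes called.

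**Figure D2:**
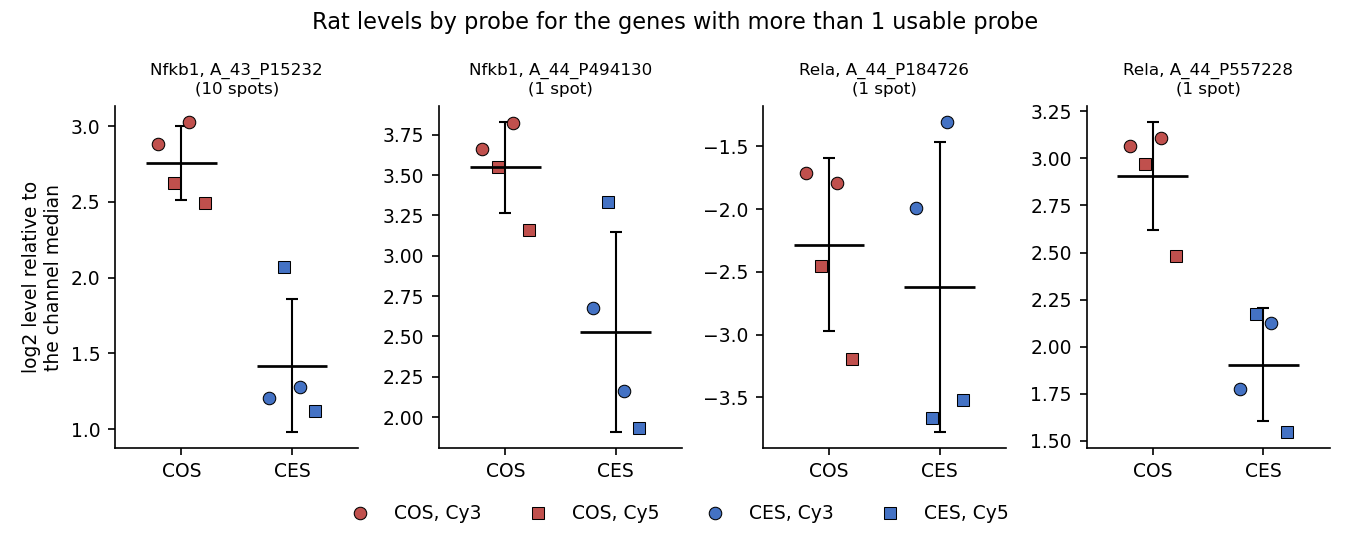
Log2 level relative to the channel median by probe for Nfkb1 and Rela, the genes with a pair of probes valid in all rats, 1 panel a probe with its own vertical axis. Points are single rats, bars the mean and SD of 4 rats. COS and CES are apart on the repeated Nfkb1 probe and on the Rela probe A_44_P557228, overlap in a single rat of each group on Nfkb1 A_44_P494130, and overlap throughout on Rela A_44_P184726, which was near background.

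Nfkb2 encodes p100, the precursor of p52 and the subunit of the non-canonical pathway. Its level was 2.00, 1.98, 1.96 and 1.38 in COS and 0.30, 1.04, 0.24 and −0.25 in CES. COS replicate 4 was the low rat of its group and CES replicate 2 the high rat of the other, and they did not meet. The means were 1.83 ± 0.30 (SD, n = 4) and 0.33 ± 0.53 (SD, n = 4), the difference was −1.50 (standard error 0.28, limma adjusted p = 0.00543), and after subtracting the all-gene median it was −1.24. Without COS replicate 3 its adjusted p rose to 0.0526, and over all alternatives it lay between 8.06e-05 and 0.0847. A second Nfkb2 probe, A_43_P18492, was well above background in 0 rats and valid in 7, and was not used.

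Nfkbia encodes I-kappa-B alpha, the inhibitor that is degraded and resynthesized fastest and whose transcript is widely used as a readout of NF-kappa-B activity. Its level was 3.84, 3.89, 4.43 and 3.88 in COS and 2.27, 2.86, 2.94 and 2.62 in CES. COS replicate 3 was the highest rat, and the COS rats were above all CES rats without it too. The means were 4.01 ± 0.28 (SD, n = 4) and 2.67 ± 0.30 (SD, n = 4), and the difference was −1.34 (standard error 0.21, limma adjusted p = 0.00416), which is 2.53-fold lower in CES and −1.09 beyond the all-gene median.

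Nfkbib encodes I-kappa-B beta, an inhibitor that responds more slowly. Its level was 3.19, 3.22, 3.36 and 2.90 in COS and 2.02, 2.36, 2.21 and 1.74 in CES. All COS rats were above all CES rats. The means were 3.17 ± 0.19 (SD, n = 4) and 2.08 ± 0.27 (SD, n = 4), the difference was −1.09 (standard error 0.19, limma adjusted p = 0.00474), and after subtracting the all-gene median it was −0.83.

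Bcl3 had the lowest difference of the 8 genes. Bcl3 encodes a nuclear member of the I-kappa-B family that binds p50 and p52 homodimers and can turn their targets on or off. Its level was 4.44, 4.32, 4.41 and 3.84 in COS and −0.28, 2.36, −1.28 and −1.95 in CES. The COS rats were tightly grouped, whereas the CES rats ranged over more than 4 log2 units with replicate 2 highest. The means were 4.25 ± 0.28 (SD, n = 4) and −0.29 ± 1.89 (SD, n = 4). The difference was −4.54 (standard error 0.75, limma adjusted p = 0.00438), or −4.28 beyond the all-gene median. Its spot was well above background in all 4 COS rats and in 3 of the CES rats, so the size of the difference rests in part on a value near background. Without CES replicate 2 the difference was −5.54, and without CES replicate 4 it was −3.59.

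Ikbkb, which encodes IKK-beta, the catalytic kinase that phosphorylates the I-kappa-B proteins, differed least. Its level was 2.56, 2.60, 2.55 and 2.00 in COS and 1.47, 2.33, 1.64 and 1.39 in CES. CES replicate 2 lay above COS replicate 4, so the groups overlapped. The means were 2.43 ± 0.28 (SD, n = 4) and 1.71 ± 0.43 (SD, n = 4), and the difference was −0.72 (standard error 0.24, limma adjusted p = 0.0464), or −0.46 beyond the all-gene median. It was called in 9 of the 23 alternatives (adjusted p from 0.00296 to 0.597) and not called without COS replicate 1, 2 or 3 or without CES replicate 1, 3 or 4.

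**Figure D3:**
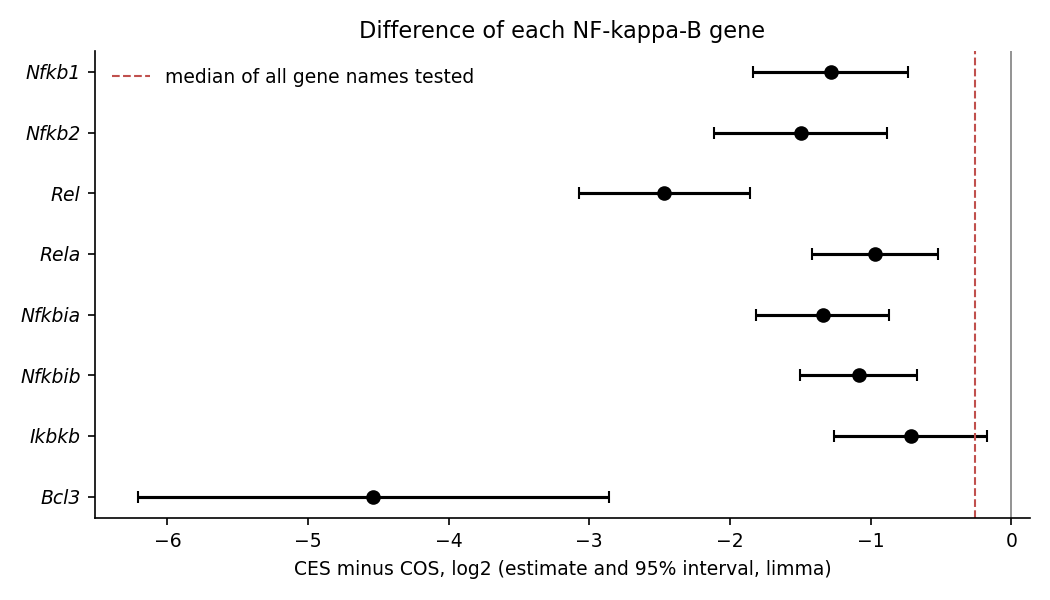
Difference CES minus COS in log2 for the 8 genes, with the 95% interval of the limma fit. The dashed line is the median of all gene names at −0.25. The interval of Ikbkb, from −1.26 to −0.17, contains the dashed line, and the intervals of the other 7 genes lie below it.

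Within CES, replicate 2 had the highest level of its group for Nfkb1, Nfkb2, Rel, Nfkbib, Ikbkb and Bcl3, and CES replicate 4 the lowest for all 8 genes except Nfkbia. CES replicate 4 also had the lowest median level of its group over all gene names, 0.36. That median was 0.54 in CES replicate 2, 0.67 in replicate 1 and 0.89 in replicate 3. Since dye and replicate number go together, the differences were also taken within each dye, over 2 rats of each group. With Cy3 they ran from −5.20 in Bcl3 to −0.99 in Ikbkb and with Cy5 from −3.87 in Bcl3 to −0.44 in Ikbkb. All 8 genes were lower in CES with both dyes, which for all but Ikbkb follows from groups that do not overlap. The array is nested in the group, and the fit carried it as a random block with an estimated correlation of −0.0064.

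Microglia, the resident immune cells of the brain, express many genes of this pathway, and some of their markers moved with the groups. The summed level of the 11 microglial markers was 249 to 353 in COS and 118 to 207 in CES, without overlap. Levels were summed on the linear scale. C1qb therefore weighed most, with the highest mean log2 level of the 11 in COS (7.02) and in CES (5.67). Limma called 5 of the 11 lower (Cd68, Itgam, C1qb, Csf1r and C1qa) and P2ry12 higher. Over all gene names it called 28.3% lower and 5.8% higher, and the counts of every cell type below stand against these shares. Cd68, a lysosomal protein of phagocytes, had the lowest difference at −2.19 (adjusted p = 0.00489, standard error 0.38), while P2ry12, a receptor of resting microglia, was 0.93 (adjusted p = 0.00833, standard error 0.20). Among the markers that were not called, the difference was −0.43 for Cx3cr1, −0.32 for Aif1, −0.27 for Trem2 and 0.22 for Tmem119. The all-gene median was −0.25, and the differences of Aif1, Trem2 and Tmem119 changed sign in some alternatives. With shared-spot scaling the summed level was 113 to 159 in COS and 69.6 to 132 in CES, which overlap. Of the 11, Cd68 alone was then called lower and P2ry12 was called higher, against 8.05% and 15.7% of all gene names. The part of microglia in the differences of the NF-kappa-B genes and of the pathway lists was not tested. Among the markers of other cell types, single genes moved in both directions. Of 8 astrocyte markers 3 were called higher and 1 lower, of 6 neuronal markers 2 higher and 1 lower, of 4 markers of CA pyramidal cells 3 higher and 1 lower, of 5 endothelial markers 1 higher and 3 lower, and of 5 granule cell markers 0 higher and 3 lower. None of the oligodendrocyte, leukocyte, red blood cell and choroid plexus markers tested was called. The markers called higher without overlap of the groups were Gjb6, an astrocyte gap junction protein, at 2.27 (adjusted p = 0.0077), Slco1c1, a transporter of the blood-brain barrier, at 1.99, Aldh1l1, an astrocyte enzyme, at 1.23, Wfs1 at 0.98 and the neuronal Stmn2 at 0.79. Those called lower without overlap were Vwf, the von Willebrand factor of endothelium, at −2.01 (adjusted p = 0.0119), Dsp, which encodes desmoplakin, at −1.24, Flt1, a receptor of vascular endothelial growth factor, at −1.04, and Nefl, a neurofilament subunit, at −0.82. On its best spot, Dsp was well above background in 3 COS rats and 2 CES rats, and Flt1 in 4 COS rats and 2 CES rats. C1ql2 differed by −1.23 with groups that overlapped, and the Tdo2 spot was not well above background in any rat. With shared-spot scaling Gjb6, Slco1c1, Aldh1l1, Wfs1 and Stmn2 were still called higher, while Vwf, Dsp, Flt1, Nefl, C1ql2 and Tdo2 were not called. The part of these cell types in the NF-kappa-B differences was not tested either. The summed levels of the astrocyte, oligodendrocyte, neuron, granule cell, pyramidal cell, endothelial, leukocyte, red blood cell and choroid plexus markers overlapped between the groups.

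Other genes of the pathway were read from 4 lists. Of the kinases and I-kappa-B genes outside the list above, 12 were tested, and 8 were called lower and 0 higher, with a median difference of −0.77 against −0.25 over all gene names. Of all gene names 28.3% were called lower and 5.8% higher (8.05% and 15.7% with shared-spot scaling). The counts of all 4 lists, as reported and with shared-spot scaling, stand against these shares. The lowest was Map3k14, which encodes the kinase NIK of the non-canonical pathway. Its levels were 1.46, 0.59, 0.68 and −0.08 in COS and −0.77, −0.49, −0.35 and −1.06 in CES, for a difference of −1.33 (adjusted p = 0.0065, standard error 0.26). Nkiras2, a small GTPase that binds I-kappa-B beta, differed by −1.02 (adjusted p = 0.0136, standard error 0.25) and Chuk, the kinase IKK-alpha, by −0.94 (adjusted p = 0.00681, standard error 0.19). With shared-spot scaling, 3 of the 12 were called lower (Map3k14, Chuk and Nfkbie) and Nkiras1 was called higher, of which Nfkbie and Nkiras1 are named after their values were seen. The number called lower was 0 without COS replicate 3, 5 without COS replicate 2, 4 without CES replicate 1 and 0 with normexp. Over all gene names the share called lower in these alternatives was 4.28%, 18.7%, 11.5% and 2.16%. The counts of the other lists in the same alternatives stand against these shares too.

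Of 25 adaptors and ubiquitin enzymes upstream of the I-kappa-B kinase, 15 were called lower and 0 higher, with a median of −0.85. The lowest was Birc3, a ubiquitin ligase also known as cIAP2. It was 0.83, 0.30, 0.84 and −0.38 in COS and −1.67, −1.01, −1.51 and −2.68 in CES, for a difference of −2.12 (adjusted p = 0.00412, standard error 0.33). Ripk2, the kinase downstream of NOD receptors, differed by −1.86 (standard error 0.29) and Birc2, the related ligase cIAP1, by −1.74 (standard error 0.21). All 3 sets of COS and CES values were apart. The Birc3 spot was well above background in 4 COS rats and 2 CES rats, and its difference ran from −2.88 to −0.89 over the alternatives. With shared-spot scaling 9 of the 25 were called lower and 0 higher, and the number lower was 7 without COS replicate 3, 9 without CES replicate 1 and 2 with normexp.

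Receptors and ligands that signal to NF-kappa-B gave 13 of 17 called lower and 0 higher, with a median of −1.61. Cd14, the coreceptor for bacterial lipopolysaccharide, was 5.96, 6.45, 6.50 and 5.84 in COS and 0.65, 4.44, 0.13 and −0.68 in CES. As in Bcl3, CES replicate 2 was far above the other CES rats. The difference was −5.05 (adjusted p = 0.00484, standard error 0.88). Tnfrsf12a, the receptor of the cytokine TWEAK, differed by −3.90 (adjusted p = 0.00419, standard error 0.64). Il1b, the cytokine interleukin-1 beta, differed by −2.16 (adjusted p = 0.00518, standard error 0.39) with spots well above background in 3 of the COS rats and 2 of the CES rats. With shared-spot scaling 10 of the 17 were called lower and 0 higher, and the number lower was 5 without COS replicate 3 and 6 with normexp.

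Of 28 textbook target genes of NF-kappa-B tested, 23 were called lower and 0 higher, with a median of −1.58. The 3 target genes named here are chemokines, and many of their CES values were near background, so the sizes of the differences are uncertain. Ccl2, which attracts monocytes, was 6.46, 7.08, 5.96 and 6.16 in COS and −2.05, 4.32, −0.63 and −3.25 in CES, for a difference of −6.82 (adjusted p = 0.00547, standard error 1.26). Again CES replicate 2 was the highest rat of its group by a wide margin. Cxcl1, which attracts neutrophils, differed by −4.35 (adjusted p = 0.00484, standard error 0.75) and Cxcl10, an interferon-induced chemokine, by −4.05 (adjusted p = 0.00705, standard error 0.82). All 3 were well above background in 4 COS rats, and in CES in 2 rats for Ccl2, 1 for Cxcl1 and 2 for Cxcl10. With shared-spot scaling 16 of the 28 were called lower and 0 higher, and the number lower was 10 both without COS replicate 3 and with normexp. Of the target genes, 27 were in the promoter table, and 13 of these held the kappa-B consensus in the same window. So did 5 of 13 of the other kinases and I-kappa-B genes, 3 of 23 adaptors and ubiquitin enzymes and 6 of 22 receptors and ligands. Of all promoters 7.51% held it.

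**Figure D4:**
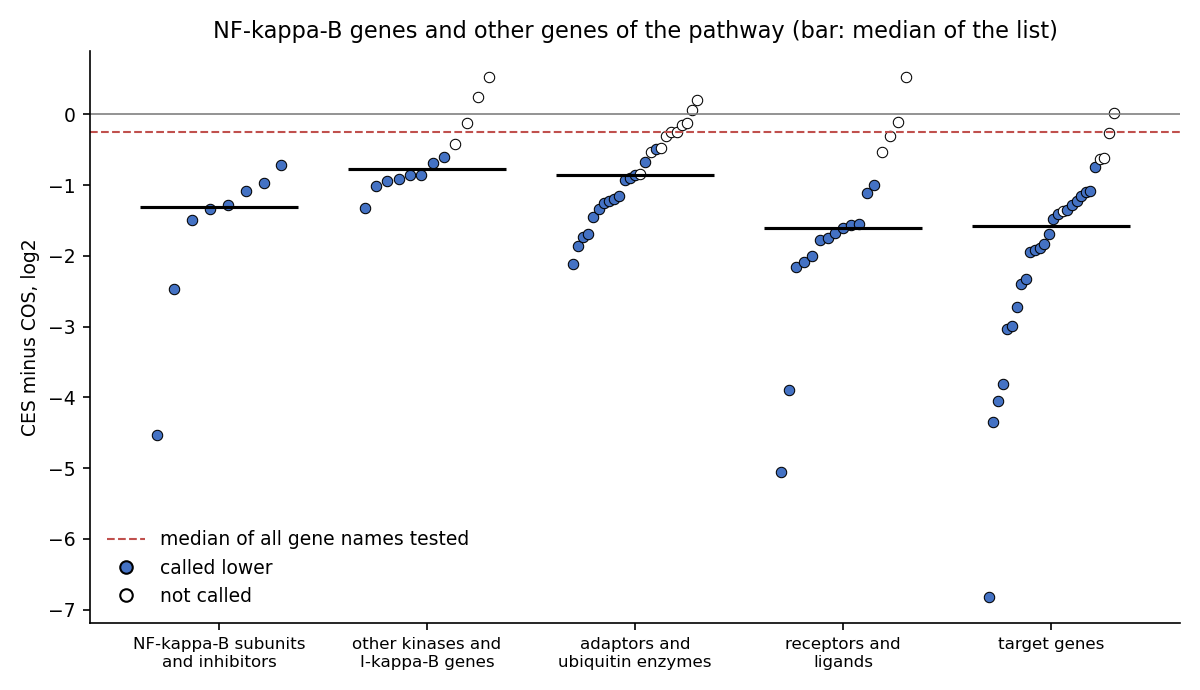
Difference CES minus COS in log2 for the 8 NF-kappa-B genes and for the genes of 4 other lists of the pathway. Each point is a gene, blue where limma called it lower and white where not called, the bar is the median of the list and the dashed line the median of all gene names. The medians run from −0.77 for the other kinases and I-kappa-B genes to −1.61 for receptors and ligands, all below the dashed line at −0.25.

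The direction of the 8 differences was the same in every alternative run, and the calls were lost most often for Ikbkb. Dropping the array block or dye term, the replicate block and the methods' t-test leave the difference itself unchanged. Those alternatives therefore bear on the calls and not on the direction. Rel, Nfkbia, Nfkbib, Ikbkb and Bcl3 were each read by a single spot. Where that spot passed, the difference was also unchanged without a filter, with the brightest probe, without outlier spots or with the well-above-background filter. Only for Ikbkb, whose groups overlapped, could leaving out a rat have changed the direction.

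**Figure D5:**
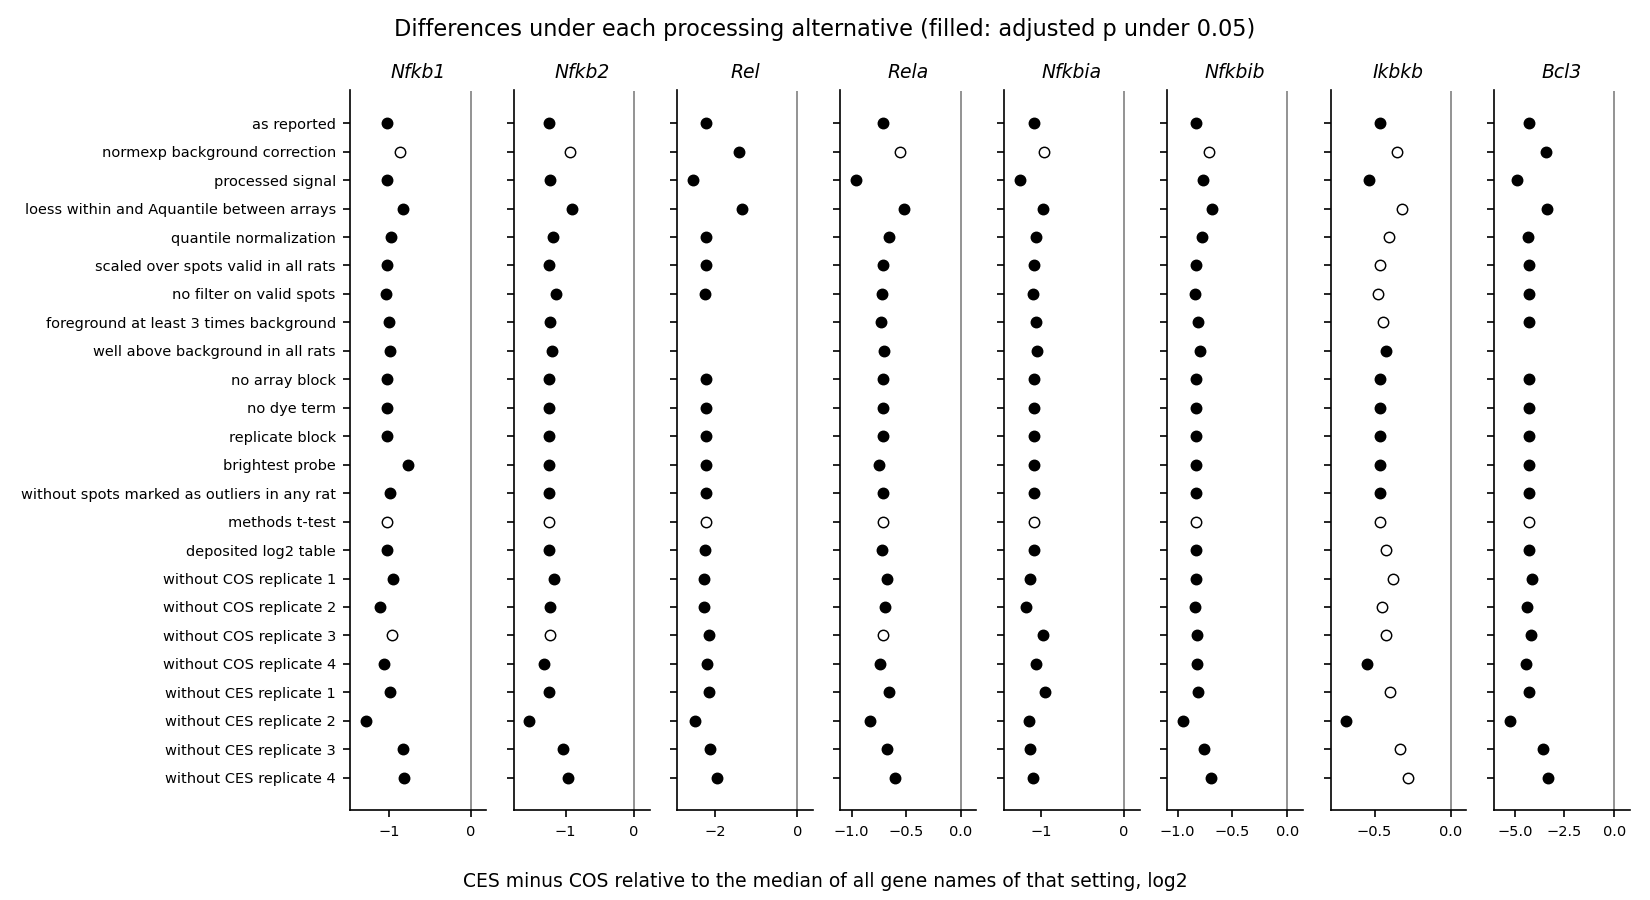
Difference CES minus COS of each gene relative to the median of all gene names, in log2, as reported and under each of 23 processing alternatives, with filled points where the adjusted p was under 0.05. Rel and Bcl3 have no point where their spots did not pass a stricter filter. Every point of every gene lies below 0, and the open points are most frequent for Ikbkb.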

How the data were processed

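RNA of 8 rats was read on 4 2-colour arrays. The scanner files deposited by the authors hold the intensity of each spot and its local background per channel, from Agilent Feature Extraction 10.7.3.1 per the submitters' processing notes, with flags and a processed intensity that the software background-corrected and dye-normalized. The deposited log2 table holds, per spot, the median signal less background on the log2 scale, centred on the median of its listed spots. The files of a pair of rats on an array are identical, and each rat was read from its own dye. Groups, dyes and replicate numbers come from the sample records. The genes and lists were chosen with earlier results of these data known.

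As in the study's methods, a spot was valid when its mean foreground was at least 2 times its background median. The difference of these was divided by the median of the channel's valid spots, averaged over the spots of a gene name valid in all 8 rats (27642 spots), and taken to log2. The study's iterative renormalization was not repeated. The groups were compared by limma 3.58.1 (R 4.3.3) with dye as a fixed term and array as a random block (statmod 1.5.0), two-sided, Benjamini-Hochberg adjusted over all gene names, threshold 0.05. The median standard error was 0.20 on the log2 scale, and the number of arrays limits the precision. Beyond the sharing of arrays in pairs, nothing says more of how the 4 samples of a group relate than that they are rats. The p-values measure the spread between rats, with the array entered through a single correlation estimated over all genes. Since each array held rats of a single group, differences between arrays cannot be told apart from the effect of estradiol. Same-numbered rats of the 2 groups deviated together (correlations 0.209 to 0.335), and they also share a dye. With the mean of each dye removed the correlations were −0.065 and −0.039.

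Genes named beyond the 10 are, for each list, at most the 3 with the largest called difference and groups that do not overlap, and defining cell type markers. The values of 1 marker gene are not reported here. Alternatives changed the signal (processed intensity, normexp with an offset of 50, the deposited log2 table), the scaling (loess with Aquantile, quantile, shared-spot scaling), the filter (none, 3 times background, well above background in all rats), the model (array block or dye term dropped, replicate block, the methods' t-test, here with Benjamini-Hochberg adjustment in place of the study's correction for redundant spots and without its fold cut-off), the probe (brightest) and the rats (each left out). Dropping spots marked as outliers was added after seeing the data. Promoter sequences are from RefSeq (GRCr8), matched by symbol. Other tools were Python 3.11.15, numpy 2.4.6, pandas 2.3.3 and matplotlib 3.10.9, with the package data.table (version 1.17.8).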

Additional observations from a re-analysis of the deposited data

Results flagged for a closer look

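In 3 of the 16 groups of 4 rats examined (8 genes in COS and CES), a rat stood apart from the others of its group by Dixon's ratio, which by chance passes its critical value in about 1 in 20 groups. The 16 groups come from the same 8 rats and are not independent. Nfkb2 was 1.38 in COS replicate 4, below the other COS rats at 1.96 to 2.00. Ikbkb was 2.00 in the same rat, below the others at 2.55 to 2.60. Nfkbia was 4.43 in COS replicate 3, above the others at 3.84 to 3.89. Without COS replicate 4 the differences were −1.66 for Nfkb2 and −0.89 for Ikbkb, and without COS replicate 3 that of Nfkbia was −1.18.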

How the results depend on the processing

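The difference of each of the 8 genes was below 0 in every alternative run, from 21 for Rel and 22 for Bcl3, whose spots did not pass a stricter filter, to 23 for the others. The alternatives of the model could not change the difference, and so not its direction. Leaving out a rat could not change the direction either, except for Ikbkb. For genes read by a single spot, the brightest probe, the dropping of outlier spots and the absence of a filter left the difference unchanged. The number of the 8 called lower was 2 with normexp background correction, 0 with the methods' t-test, where 8 had an unadjusted p under 0.05, and between 4 and 8 when a rat was left out, the 4 being without COS replicate 3. In the other alternatives it was within 1.5 times the 8 reported. Over all gene names, the number called higher was 125 with normexp, 3323 with loess and Aquantile, 3055 with quantile normalization, 3348 with shared-spot scaling, 404 without a filter, 3275 in the deposited log2 table, and 257 to 1855 when a rat was left out. The number called lower was 461, 2225, 2221, 1718, 2696 and 1927 in the same alternatives, 2828 when spots had to reach 3 times background, and 914 to 7012 when a rat was left out. With Benjamini-Hochberg adjustment over all gene names, which the study's methods do not use, the methods' t-test called 0 higher and 0 lower, with 6103 gene names at an unadjusted p under 0.05. With the replicate block, 8 of the 8 genes were called lower and 6131 gene names were lower and 1076 higher, and no call of the 8 genes changed. The cause of these shifts was not tested. The estimated array correlation was 0.57 with normexp, 0.28 with scaling over shared spots and 0.22 without COS replicate 3. Signal over background limits Rel and Bcl3 in CES, where 2 and 3 of the 4 rats were well above background.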
